A study of Mus musculus with 2 samples.

Results

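Natural killer (NK) cells were examined by single-cell RNA sequencing of epididymal fat from mice. The tissue was digested and freed of fat cells, which leaves its stromal vascular fraction. Of 14130 cells kept in all, 52 met the definition of an NK cell used here. One library came from mice on a normal chow diet (NCD), and it gave 35 NK cells among 7344 kept cells. The other came from mice on a high fat diet (HFD) for 12 weeks, and it gave 17 among 6786. All mice were male C57BL/6J wild type animals of 18 weeks, so the diets differed and the genotype, sex and age did not. The labels do not state how many animals went into each library. With 1 library per diet, no difference between the diets has a replicate check, and no test was made.

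NK cells are innate lymphocytes that kill stressed, infected or transformed cells by releasing granules with perforin and granzymes. They weigh signals from activating receptors, many of which work through the adaptors encoded by Tyrobp, Fcer1g and Hcst, against inhibitory members of the Ly49 (Klra) and CD94/NKG2 (Klrd1, Klrc1) families that read MHC class I on the target. Both families also hold activating members. They also secrete interferon gamma and chemokines, and in visceral fat of obese mice they are known as one of the sources of interferon gamma that acts on macrophages.

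A cell was counted as NK if it held at least 500 genes, at most 20% mitochondrial UMIs (unique molecular identifiers, each standing for 1 captured transcript), and at least 3 UMIs over the 6 genes Ncr1, Klrb1c, Klre1, Prf1, Gzma and Eomes. It also had to hold at least 1 UMI of Nkg7, at most 1 UMI over the T cell receptor complex genes Cd3e, Cd3d and Cd3g, and at most 1 UMI over Il1rl1, Gata3, Il5 and Il13, which mark type 2 innate lymphoid cells (ILC2). UMIs of C1qa, C1qb and C1qc had to stay under 0.5% of the cell, which sets macrophages aside, and those of Dcn, Col3a1, Col1a2 and Lum under 1.5%, which sets stromal cells aside. These measured values chose the cells, so the levels of these genes describe the choice and support nothing. Members held 3 to 73 UMIs over the 6 NK genes in the NCD library, with a median of 18, and 3 to 39 in the HFD library, with a median of 10. Just inside the limit, 2 NCD and 2 HFD cells held exactly 3 of these UMIs. Just outside it, 2 NCD and 7 HFD cells held 2 and met every other limit. Of the members, 2 in NCD and 1 in HFD held 1 Cd3 UMI.

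The start regions of 4 genes are shown because they share a short stretch of letters: Ncr1 and Gzma belong to the definition, and Gzmb and Klrc1 are outside it and stood above T cells. Each window is the 250 bases before the RefSeq start of the gene on GRCm38.p6, written 5′ to 3′ on the strand of the gene, and capitals mark ACCACA or its reverse complement TGTGGT, the letters at the core of the site that RUNX transcription factors bind. The windows are chr7:4337465-4337714 on the plus strand for Ncr1, the receptor NKp46, chr13:113100982-113101231 on the minus strand for Gzma, the protease granzyme A, chr14:56262335-56262584 on the minus strand for Gzmb, granzyme B, and chr6:129678974-129679223 on the minus strand for Klrc1, the receptor chain NKG2A.
Ncr1: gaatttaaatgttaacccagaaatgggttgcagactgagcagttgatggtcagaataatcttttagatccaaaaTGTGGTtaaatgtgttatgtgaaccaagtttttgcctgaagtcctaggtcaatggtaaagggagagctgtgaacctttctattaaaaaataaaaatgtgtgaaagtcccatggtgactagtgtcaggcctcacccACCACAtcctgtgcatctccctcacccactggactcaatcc
Gzma: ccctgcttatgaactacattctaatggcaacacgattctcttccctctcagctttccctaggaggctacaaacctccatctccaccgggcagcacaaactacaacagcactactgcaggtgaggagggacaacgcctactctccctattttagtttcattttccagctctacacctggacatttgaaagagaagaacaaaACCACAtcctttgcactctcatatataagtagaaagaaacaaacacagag
Gzmb: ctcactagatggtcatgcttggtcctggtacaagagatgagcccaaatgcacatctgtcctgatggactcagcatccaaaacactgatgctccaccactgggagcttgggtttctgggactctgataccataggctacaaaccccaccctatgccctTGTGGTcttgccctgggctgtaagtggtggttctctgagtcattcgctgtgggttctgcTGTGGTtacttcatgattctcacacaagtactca
Klrc1: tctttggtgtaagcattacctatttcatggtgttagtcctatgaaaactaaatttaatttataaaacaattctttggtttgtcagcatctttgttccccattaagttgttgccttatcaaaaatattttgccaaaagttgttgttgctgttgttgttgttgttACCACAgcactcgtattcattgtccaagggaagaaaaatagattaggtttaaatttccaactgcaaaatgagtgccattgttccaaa
The Ncr1 window held the letters at 176 and 41 bases before the start, the Gzma window at 50, the Gzmb window at 93 and 34, and the Klrc1 window at 87. RefSeq gave windows for 17 of 20 genes looked up, namely the 6 NK genes, Nkg7, Ccl5 and the 12 genes named below for their excess over T cells. The RUNX letters stood in a window of 11 of these 17 genes. Counted over windows, since 4 genes have 2 overlapping ones, it was 13 of 21, beside 14.0% of all 32851 windows of this length. The T-box letters TCACACC or GGTGTGA stood in 2 of the 17 genes, Nkg7 and Xcl1, beside 3.33% of all windows. The ETS letters CAGGAA or TTCCTG stood in 4 of the 17, beside 25.7% of all windows. These are matches of letters and not sites shown to be bound, and members of the Klrb1 and Klrc families have similar sequences.

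The label was checked against NK markers that the definition did not use. Summed over Klrk1, Klrd1, Klrc1, Il2rb, Xcl1, Txk, Itga2, Klrb1b, Klri2, Klra4 and Klra8, the NK cells held 3780 counts per 1000000 UMIs (CPM) in NCD and 5480 CPM in HFD, and the T cells of the same libraries held 654 and 750 CPM. All 11 of these genes had a UMI in the NCD members and 10 of 11 in the HFD members, where Itga2, the integrin CD49b, was at 0. Of T cell genes that the definition did not limit, Cd5, Cd6, Cd4, Cd8a, Cd8b1, Icos and Trat1 were at 0 in the NK cells of both libraries. Cd28 and Lat had UMIs in both libraries, and Bcl11b had 2 UMIs in NCD and 0 in HFD. A UMI of any T cell marker, Cd3 included, lay in 19 NCD and 6 HFD members, with at most 3 and 2 UMIs in a member. Over 13 T cell markers, 3 of them the Cd3 genes that the definition limits, the NK cells held 197 and 138 CPM and the T cells, chosen by Cd3, 2380 and 3210 CPM, which describes the choice in part. T cells here are the 169 NCD and 149 HFD cells with at least 2 Cd3 UMIs and at most 1 B cell UMI, within the same C1q and stromal limits. The sum of the 11 NK markers was thus above that of T cells in both libraries, while the 4 markers Ncr1, Klrb1c, Prf1 and Gzma belong to the definition and are no check of it.

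The NK cells were shallow and few, which limits every value below. They held 126621 UMIs in NCD, with a median of 2497 per cell and a range of 1565 to 19311, and 50700 UMIs in HFD, with a median of 2242 and a range of 1530 to 9809. A single UMI was worth 7.9 CPM in NCD and 19.7 CPM in HFD, and the 3 UMIs put in place of a count of 0 in ratios were worth 23.7 and 59.2 CPM. The 2 libraries as a whole differed more in depth, with medians of 4237.5 and 2023 UMIs over all kept cells. No NK barcode was among the 64 barcodes that occurred in both libraries. Brackets after a value give exact 95% intervals, which cover counting error only and not the variation between animals.

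Some members carried transcripts of other cell types. The deepest NCD member, with 19311 UMIs, made up 15.3% of all NCD NK UMIs, and it held 1.43% stromal UMIs, 214 UMIs of the stromal gene Gsn and 5 of the proliferation gene Mki67. Another NCD member with 6527 UMIs held 1.29% stromal UMIs and was called a doublet. The NCD member with 6620 UMIs held 0.861% stromal UMIs and 71 UMIs of the smooth muscle actin gene Acta2, and the one with 6496 UMIs held 0.493% C1q UMIs and 148 UMIs of the myeloid gene Lyz2. In HFD a member with 1883 UMIs held 1.01% stromal UMIs, and a member with 2242 UMIs held 0.268% C1q UMIs and 32 of Lyz2. Limits of 0.2% for C1q and 0.4% for stromal UMIs, chosen after these values were seen, left out these 4 NCD and 2 HFD cells and kept 31 and 15. Such values are called stricter below. Over 11 stromal markers outside the definition, the median level in all members was 28.8% of the library level in NCD and 20.4% in HFD, and within the stricter limits 3.15% and 10.8%. Over 11 macrophage markers it was 4.63% and 13.5%, and within the stricter limits 2.98% and 8.85%. The remaining stromal and macrophage signal was thus larger in HFD, and the stricter value is given beside many of the results that it moves. When the profile of each library was subtracted in the proportion these markers gave, 19.7% in NCD and 16.2% in HFD, all 24 genes named below for the diets kept their direction. These genes were named only if their level in the higher library reached that of all kept cells, so this subtraction could hardly turn them. For single genes the part of this signal was not tested.

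**Figure D1:**
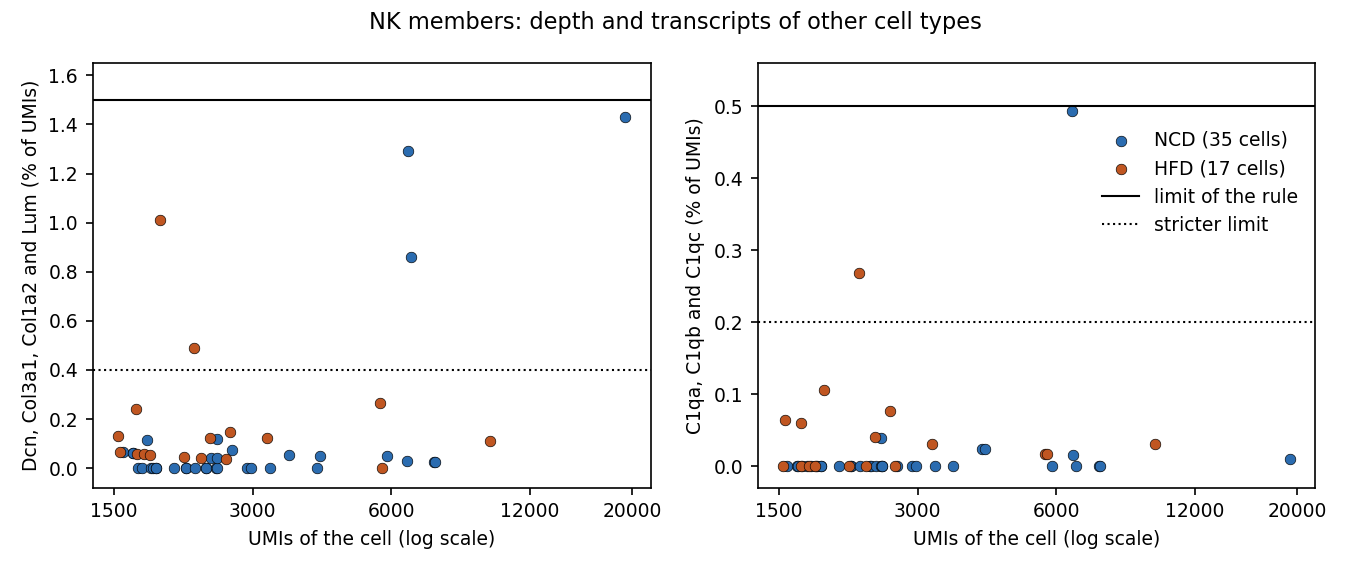
Each point is 1 NK cell, with its total UMIs on a log axis and the percent of its UMIs from 4 stromal genes (left) or 3 C1q genes (right). Solid lines are the limits of the definition and dotted lines the stricter ones, above which lie 4 NCD and 2 HFD cells.

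NK cells were a smaller share of the HFD library. They made up 0.477% (0.332 to 0.662) of kept cells in NCD and 0.251% (0.146 to 0.401) in HFD, which is 1.90-fold lower (1.04 to 3.62). T cells made up 2.30% and 2.20%, so that there were 0.207 NK cells per T cell in NCD and 0.114 in HFD. ILC2 differed more, with 0.749% and 0.0737%. The stricter limits gave 0.422% and 0.221%, which is 1.91-fold lower (1.0 to 3.81). The difference was smaller with at least 2 UMIs of the 6 NK genes asked for, which gave 37 NCD and 24 HFD NK cells, at 0.504% and 0.354%. Without the C1q and stromal limits there were 35 NCD and 20 HFD NK cells, at 0.477% and 0.295%. Thinning every barcode to 1400 UMIs before the cells were chosen left 33 and 16. The order turned when cells with under 1000 genes or over 10% mitochondrial UMIs were left out, which kept 18 NCD and 10 HFD NK cells at 0.276% and 0.350% of the cells left. A share of dissociated cells is not a number of cells per fat pad.

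The granule genes were dominated by Gzma and Nkg7. Gzma, which belongs to the definition, stood at 4707 CPM (NCD) and 2189 CPM (HFD), which is 2.15-fold lower (1.75 to 2.66), and within the stricter limits the ratio of HFD to NCD was 0.368. In T cells Gzma was higher in HFD, at 127 against 63.2 CPM. Cells with a Gzma UMI numbered 26 of 35 and 10 of 17, and after thinning to 1400 UMIs their share was 65.7% and 52.9%, beside 0.305% and 0.711% of macrophages (median depth 3818 and 2113.5 UMIs). Gzmb, the other main granzyme, was at 498 CPM (NCD) and 316 CPM (HFD), a ratio of 0.634 (0.342 to 1.11) whose interval holds 1. Its UMIs lay in 20 of 35 and 4 of 17 cells, and 43.8% of the HFD ones in 1 cell. Prf1, the pore-forming perforin, was hardly captured, with 4 UMIs in NCD and 1 in HFD, and Gzmm, Gzmk and Gzmc had at most 1 UMI in either library.

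Other granule genes differed less. Nkg7, a granule membrane protein and part of the definition, was at 3317 and 2722 CPM, a ratio of 0.821 (0.672 to 0.997), and 0.667 (0.544 to 0.814) within the stricter limits. Ctsw, a cathepsin of cytotoxic cells, was at 498 and 513 CPM, and Serpinb9, which shields the cell from its own granzyme B and has close relatives in the genome, at 340 and 316 CPM. In the fixed list of 21 granule and killing genes, 13 reached 50 CPM in either library, of which 0 were at least 2-fold higher in HFD and 2 were at least 2-fold lower, Gzma and Fasl, the death ligand, whose HFD level rests on 2 UMIs. Of all 3311 genes at that level, 11.8% were at least 2-fold higher and 13.9% at least 2-fold lower. The median log2 ratio was -0.08 for the list, and 0.00 for all genes. Genes with at most 3 UMIs in both libraries were placed at 0 and never called, in the lists and in all genes. So were genes whose ratio with 3 UMIs in place of a 0 fell on the other side of 1. The 0.00 depends in part on that choice. Within the stricter limits the median was -0.38, with 1 gene higher and 2 lower of 13, beside 14.3% and 10.7% of all genes. Gzma and Nkg7 on this list belong to the definition, so its counts and medians describe the choice in part.

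Levels differed far more between single NK cells than between the libraries. Gzma ranged from 0 to 239 UMIs per 10000 UMIs of the cell in NCD, with a median of 39.7, and from 0 to 185 in HFD, with a median of 4.12. Ccl5, the T cell and monocyte attracting chemokine, ranged from 3.62 to 555 with a median of 128, and from 3.06 to 568 with a median of 77.8. Every member held Ccl5 and, by the definition, Nkg7. The ranges of the libraries overlapped for each of the 7 genes plotted by cell.

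**Figure D2:**
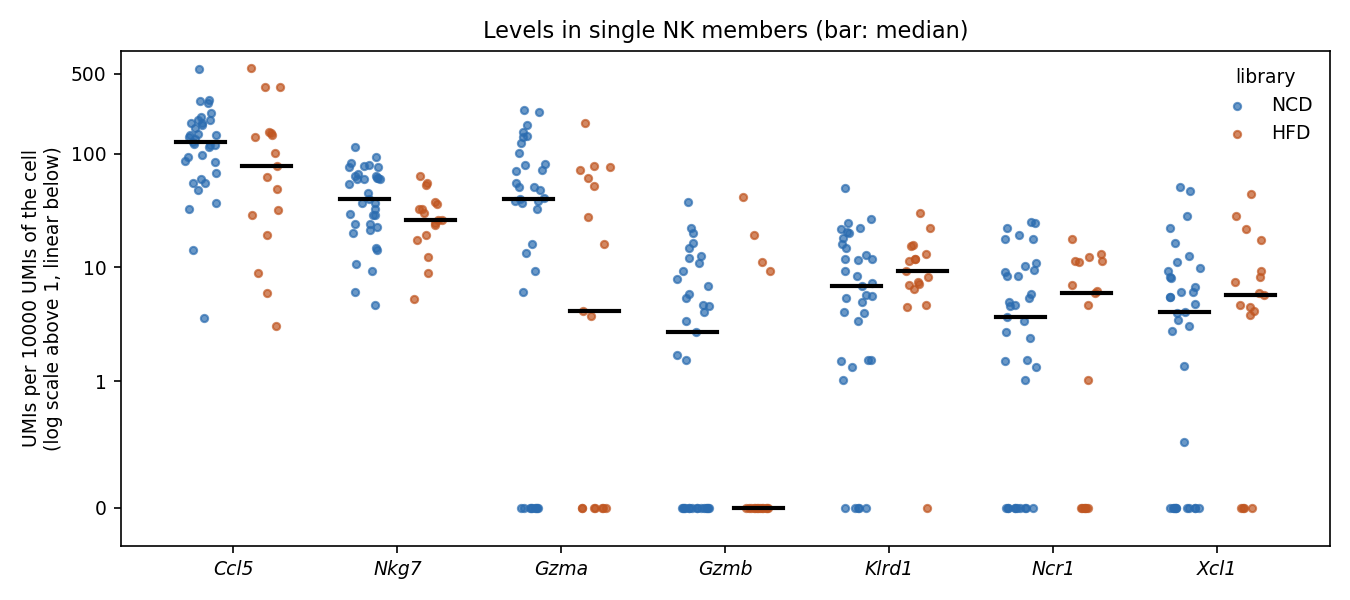
Levels of 7 genes in single NK cells as UMIs per 10000 UMIs of the cell, on an axis that is logarithmic above 1 and linear below, with 35 NCD and 17 HFD cells and bars at the medians. Gzma runs from 0 to 239 in NCD and from 0 to 185 in HFD, and the median of Gzmb in HFD is 0.

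Levels of other genes in cells with and without a Gzma UMI are given as a description. Gzma is a gene of the definition, so that cells without it entered through the other 5 genes, and both the split and the genes shown were chosen after the values were seen. The split was made within the stricter limits and gave 24 with and 7 without Gzma in NCD, and 9 and 6 in HFD. It is a cut by a single gene, and whether it parts cell types was not tested. In HFD the cells without Gzma were deeper, with a median of 3995.5 against 2129 UMIs, and the deepest of them held 9809 UMIs. The summed levels thus weigh a few deep cells most. Gzmb stood at 668 CPM with and 173 CPM without Gzma in NCD, the latter from 3 UMIs in 1 cell, and at 815 and 0 CPM in HFD. Ccl5 was at 15900 CPM with and 9360 CPM without Gzma in NCD and at 18500 and 5160 CPM in HFD. Irf8, a transcription factor of NK maturation, was 6.64-fold (1.75 to 56.3) and 3.29-fold (1.52 to 7.71) higher with Gzma. The NCD cells without Gzma held only 2 Irf8 UMIs. Ltb, the membrane cytokine lymphotoxin beta, was lower with Gzma, at 185 against 520 CPM in NCD and 102 against 631 CPM in HFD, where 15 of its 19 UMIs lay in 1 cell. The Ly49 gene Klra8 was at 554 against 0 CPM and at 1020 against 186 CPM. Some genes went in opposite directions in the 2 libraries, as did Klra4, at 497 against 0 CPM in NCD and at 356 against 854 CPM in HFD. Cd7 was at 426 against 1680 CPM in NCD and at 662 against 371 CPM in HFD, where the interval of the ratio (0.722 to 4.54) holds 1. Tmem176b was at 42.6 against 982 CPM in NCD and had 5 UMIs in all in HFD.

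Activating receptors and their adaptors were close in the 2 libraries. Ncr1 was at 490 and 473 CPM, Klrb1c, which encodes NK1.1, at 466 and 513 CPM, and Klrk1, the stress ligand receptor NKG2D, at 490 and 572 CPM. Tyrobp (DAP12) was at 3238 and 3274 CPM, Fcer1g at 2132 and 2170 CPM, and Hcst (DAP10) at 529 and 572 CPM. The interval of each of these 6 ratios holds 1, the ratio of Tyrobp being 1.01 (0.839 to 1.21) and, within the stricter limits, 0.820 (0.678 to 0.989). The exception was Klre1, a lectin-like receptor and a gene of the definition, at 505 and 1144 CPM, a ratio of 2.26 (1.56 to 3.28), or 1.69 within the stricter limits. Of the 22 list members with 50 CPM it was the 1 that was at least 2-fold higher, and 0 were lower, beside 11.8% and 13.9% of all genes. Since Klre1, Ncr1 and Klrb1c chose the cells, their levels are a description. T cells held less Tyrobp in HFD than in NCD, at 627 against 1244 CPM.

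Inhibitory receptors differed from one another between the libraries. Klrd1 (CD94), the common chain of the NKG2 receptors, was at 695 and 1045 CPM, a ratio of 1.504 (1.05 to 2.14), and 1.18 (0.817 to 1.69) within the stricter limits. Its partner Klrc1 was at 403 and 513 CPM, a ratio of 1.27 (0.762 to 2.08). Klra7 (Ly49G) was at 166 and 532 CPM, a ratio of 3.21 (1.75 to 5.97), and 2.54 within the stricter limits. In T cells Klra7 was lower in HFD, with a ratio of 0.475. Klra8, whose receptor is activating, and Klra9 are close relatives of Klra7. Neither differed beyond counting error, with ratios of 1.51 (0.891 to 2.51) and 0.763 (0.350 to 1.53). The Ly49 genes are near-identical copies, so that reads can be split between them, and their single values are uncertain. Of 11 inhibitory genes with 50 CPM, 4 were at least 2-fold higher and 0 lower, beside 11.8% and 13.9% of all genes, and within the stricter limits 3 and 0 of 11, beside 14.3% and 10.7%. The list had a median log2 ratio of 0.59 that lay between 0.21 and 0.66 over 11 alternative settings, and 7 of the 11 genes did not reach 2-fold. The checkpoint genes Lag3, Tigit and Pdcd1 had no UMI in either library. The exact 95% interval of such a count reaches 29.13 CPM in NCD and 72.76 CPM in HFD.

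Among secreted factors, Xcl1 was the one with the clearest difference. Xcl1, the chemokine that attracts cross-presenting dendritic cells, was at 513 and 1144 CPM, a ratio of 2.23 (1.54 to 3.23), and 1.73 (1.19 to 2.52) within the stricter limits. Its UMIs lay in 24 of 35 and 13 of 17 cells, and 27.6% of the HFD ones lay in 1 cell. In T cells it was at 64.4 and 92.6 CPM. Ccl5 was the most abundant chemokine, at 11170 and 10060 CPM, a ratio of 0.901 (0.812 to 0.998), and 0.737 within the stricter limits, against 3440 and 5146 CPM in T cells. Ccl4 was at 616 and 809 CPM, and Ccl3 at 134 and 158 CPM. Ifng, interferon gamma itself, was at 111 CPM in NCD, from 14 UMIs, and 98.6 CPM in HFD, from 5, a ratio of 0.892 (0.251 to 2.62). A difference within that interval was not detectable at this depth.

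Cytokine receptors and transcription factors mostly rested on few UMIs. Il2rb, the receptor chain that binds interleukins 2 and 15, was at 395 and 316 CPM, and Ifngr1 at 695 and 513 CPM, with intervals that hold 1. Stat4, which carries the interleukin 12 signal, was at 39.5 CPM in NCD, from 5 UMIs, and at 197 CPM in HFD, from 10, a ratio of 4.995 (1.56 to 18.6), with 0.934 in T cells. Over the list of cytokine receptors and signalling, the median log2 ratio was 0.71 for 9 genes with 50 CPM, and 0.01 for 12 within the stricter limits. Eomes, of the definition, was at 103 and 138 CPM, Tbx21 (T-bet) at 63.2 and 39.5 CPM, Id2 at 995 and 809 CPM and Irf8 at 466 and 710 CPM. The intervals of these 4 ratios hold 1, but that of Id2 within the stricter limits, 0.606 (0.409 to 0.880), does not. The 12 transcription factors with 50 CPM had 0 members at least 2-fold higher and 1 at least 2-fold lower, beside 11.8% and 13.9% of all genes. Their median log2 ratio was -0.05, and -0.31 over 13 genes within the stricter limits.

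Genes that set conventional, circulating NK cells apart from tissue-resident type 1 innate lymphoid cells were mixed. Klf2, which keeps cells in circulation, was at 837 and 572 CPM, a ratio of 0.683 (0.437 to 1.04) whose interval holds 1. S1pr5, the receptor for exit from tissue, had 5 UMIs in NCD and 0 in HFD. Of the residence genes, Itga1 (CD49a) had 2 and 0 UMIs, Cxcr6 had 3 and 2, Il7r had 2 and 1, and Itgae and Zfp683 had 0 in both. Both integrins used to tell these cells apart were therefore nearly unseen, since Itga2 had 1 and 0 UMIs. The conventional list had 0 members at least 2-fold higher and 3 lower of 13, with a median log2 ratio of 0.03, and the residence list had 3 higher and 1 lower of 9, with a median of 0.74, beside 11.8% higher and 13.9% lower of all genes. Within the stricter limits the residence list had 1 higher and 1 lower of 9, beside 14.3% and 10.7% of all genes, with a median of 0.33. The conventional list then had 0 higher and 2 lower of 14, with a median of -0.13. Ltb and Xcl1 were 2 of the 3 higher genes, and 15 of 19 HFD UMIs of Ltb lay in 1 cell.

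Against T cells, which share much of the lymphocyte program, NK cells stood apart chiefly by receptors. Among genes outside the definition with at least 100 CPM in the NK cells of both libraries, the 12 with the largest excess over T cells in both were Klra4, Klra8, Klra3, Klri2, Car2, Klrb1a, Serpinb9, Gzmb, Klrc2, Klrc1, Xcl1 and Klrb1f. The cells were chosen by related genes, so these ratios describe the choice in part. Klra4 (Ly49D) was at 308 and 592 CPM in NK cells and 1.24 and 0 CPM in T cells. With 3 UMIs put in place of the 0, it was 85.2-fold higher in HFD. Gzmb was 8.73-fold (5.88 to 13.1) above T cells in NCD and 12.4-fold (5.401 to 29.5) in HFD, and Xcl1 7.97-fold (5.45 to 11.7) and 12.35-fold (8.12 to 19.0). Car2, a carbonic anhydrase, was at 134 and 217 CPM against 6.19 and 9.26 CPM. Of all genes with at least 50 CPM in either class, 15.9% in NCD and 23.1% in HFD were at least 2-fold higher in NK cells, and 10.7% and 9.72% at least 2-fold lower.

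The granule list had 8 of 11 members at least 2-fold above T cells in NCD and 8 of 14 in HFD, and the activating list 14 of 22 and 15 of 21. Both lists hold genes of the definition, Gzma, Prf1 and Nkg7 in the one and Ncr1, Klrb1c and Klre1 in the other, so that these counts are in part the choice itself. The residence list had 1 above and 9 below of 15 in NCD and 2 above and 7 below of 15 in HFD. The genes furthest below T cells were Il7r, Ikzf2, Lat, Cd69, Cd8b1, Retnla, Cxcl2 and Creg1. Il7r, the interleukin 7 receptor, was at 15.8 and 19.7 CPM in NK cells and 175 and 197 CPM in T cells. Lat, the scaffold of T cell receptor signalling, was at 39.5 and 59.2 CPM against 300 and 375 CPM. Cxcl2 and Retnla are abundant in myeloid cells, and the macrophage markers stood at 29.0% and 20.4% of the library level in the T cells, and their part in these values was not tested. Retnla also differed between the diets, at 995 CPM in NCD NK cells and 19.7 CPM in HFD ones, beside 27490 and 1760 CPM in macrophages and 4340 and 176 CPM in T cells.

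**Figure D3:**
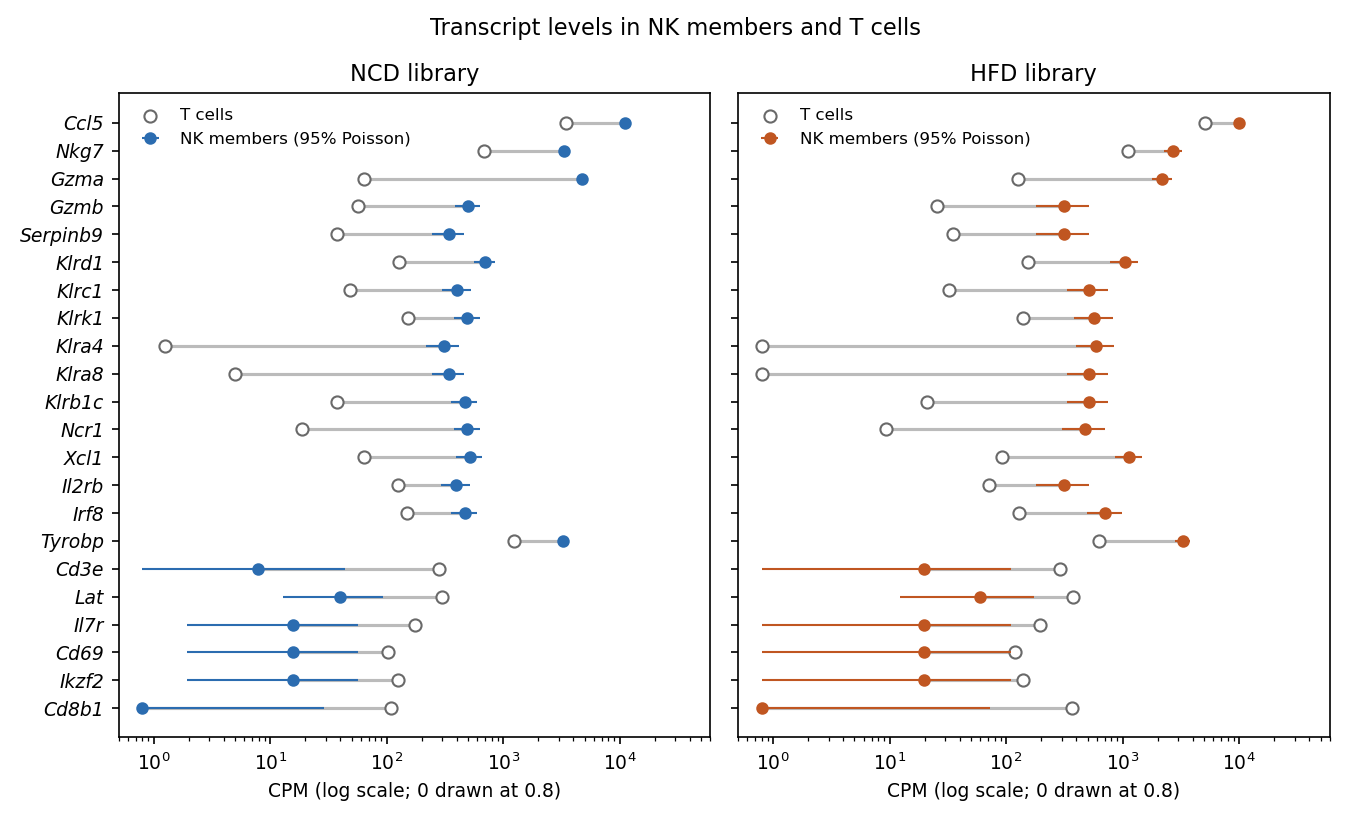
Levels of 22 genes in NK cells (filled, with exact 95% Poisson intervals) and T cells (open) of the NCD library (left) and the HFD library (right), in CPM on a log axis with 0 drawn at 0.8. Klra4 reaches 308 and 592 CPM in NK cells against 1.24 and 0 CPM in T cells, while Il7r, Lat and Cd8b1 lie on the T cell side.

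ILC2, the other innate lymphoid cells with enough NCD cells to compare (55, against 5 in HFD), differed by Ccl5, at 11170 CPM in NCD NK cells and 97.4 CPM in NCD ILC2, and by Ms4a4b, at 750 against 16.2 CPM. Furin, at 15.8 against 1336 CPM, Hes1, at 15.8 against 487 CPM, and Il2ra, the high-affinity interleukin 2 receptor, at 7.9 against 130 CPM, were lower in NK cells. Cd69, an activation and retention molecule, was at 15.8 CPM in NK cells, 102 CPM in T cells and 287 CPM in ILC2.

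Across all genes with at least 100 CPM in either library, 214 of 1658 (12.9%) were at least 2-fold higher in HFD NK cells and 195 (11.8%) at least 2-fold lower. Within the stricter limits it was 324 of 1735 (18.7%) higher and 133 (7.67%) lower. Genes were named from those whose NK level was at or above that of the whole library, in order of how far their interval stayed from 1. The 12 higher genes were Spp1, Nfkb1, Gpr18, Dut, Ncf4, Rpa3, Psmc3, Ms4a4b, Atad1, Klra7, Gmps and Pdcd4. Ms4a4b, a membrane protein of T and NK cells, had the most UMIs of these, at 750 and 1854 CPM, a ratio of 2.47 (1.84 to 3.32), and 1.92 (1.43 to 2.59) within the stricter limits. In T cells it was at 341 and 961 CPM. Pdcd4, an inhibitor of translation, was at 182 and 532 CPM, a ratio of 2.93 (1.62 to 5.35), with 1.81 in T cells.

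The higher genes other than Ms4a4b, Pdcd4 and Klra7 rested on 6 to 15 HFD UMIs. Psmc3, a subunit of the proteasome, was at 63.2 and 296 CPM, a ratio of 4.68 (1.86 to 12.8), and stood at a ratio of 0.923 in T cells. Dut, Rpa3 and Gmps act in nucleotide supply and DNA replication, with ratios of 5.99, 7.49 and 8.74. Nfkb1, the p50 subunit of NF-kappaB, had 0 UMIs in NCD and 7 in HFD, which is 5.83-fold higher with 3 UMIs put in place of the 0. Spp1, osteopontin, had 0 and 12 UMIs, 9.99-fold higher with the same 3 UMIs in place of the 0, but in 3 cells only. In T cells Spp1 was 43.0-fold higher. With the deepest member of each library left out, 10 of the 12 intervals stayed above 1, and those of Ncf4 and Gmps held 1. The deepest HFD member held 9 of 13 HFD UMIs of Ncf4 and 3 of 7 of Gmps. Within the stricter limits all 12 intervals lay above 1. The 12 genes were named by their intervals over all members, and most cells are shared, so neither count is an independent check.

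The 12 lower genes were Prss23, Tubb6, Ckb, Ptms, Arl6ip1, Cd9, Emp3, Anxa1, Napa, Lgals1, Ilk and S100a10. A large part of the UMIs of several lay in the deepest NCD member, which held 29 of 51 NCD UMIs of the protease Prss23, 38 of 46 of the tubulin Tubb6, 79 of 106 of Arl6ip1, 75 of 130 of Emp3 and 52 of 98 of Anxa1. Within the stricter limits 3 of the 12 intervals stayed below 1, 7 held 1, and Prss23 and Tubb6 had too few UMIs for a ratio. The 3 were Ckb, Napa and Lgals1. Ckb, brain-type creatine kinase, was at 276 CPM in NCD, from 35 UMIs in 10 cells, and 19.7 CPM in HFD, from 1 UMI, and its stricter ratio was 0.0896 (0.00217 to 0.557). Lgals1, the sugar-binding galectin 1, was at 3965 and 2604 CPM, a ratio of 0.657 (0.538 to 0.797), and 0.796 (0.639 to 0.986) within the stricter limits, while in T cells it stood at 2147 and 2190 CPM. Napa, a factor of vesicle fusion, had 15 UMIs in NCD and 0 in HFD. Its ratio was 0.4995 with 3 UMIs put in place of the 0, and its interval held 1 without the deepest member.

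**Figure D4:**
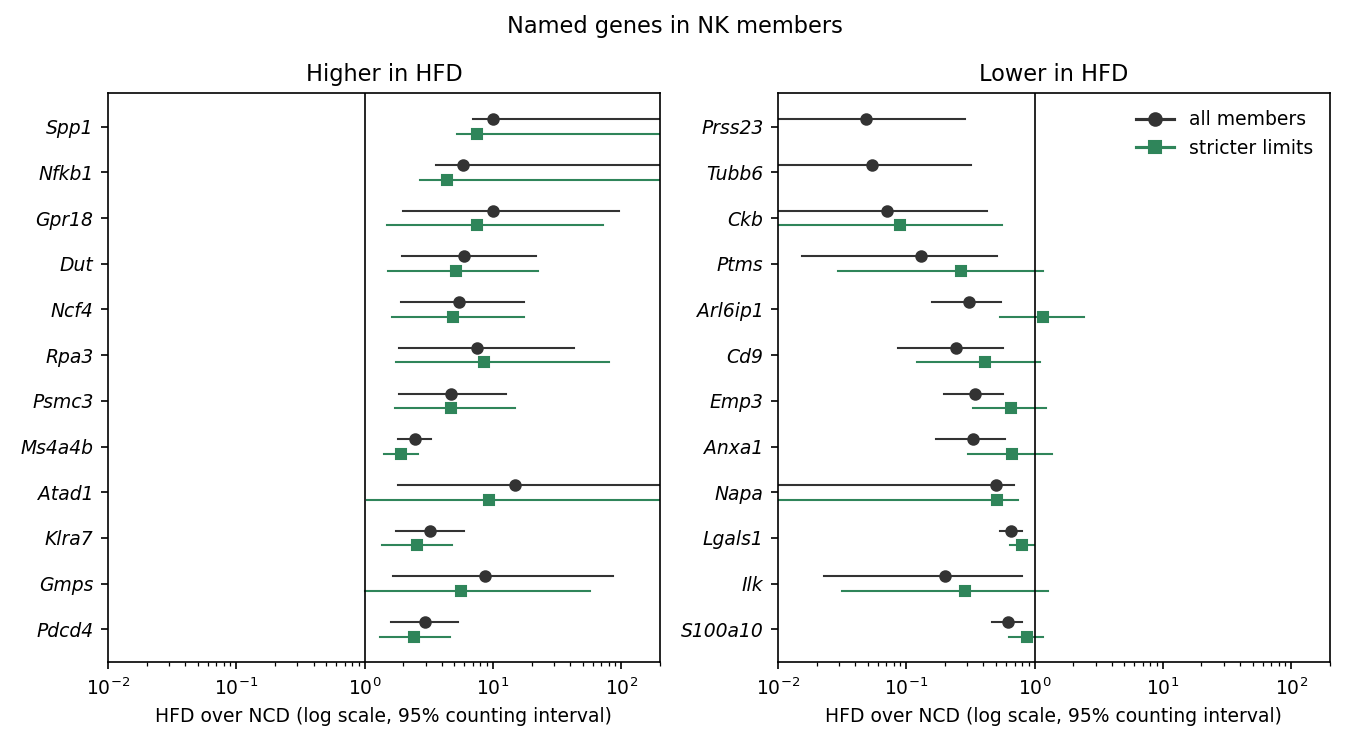
Ratio of HFD to NCD level in NK cells on a log axis, with exact 95% counting intervals, for the 12 named higher genes (left) and 12 named lower genes (right), over all members (circles) and within the stricter limits (squares). Where 1 library had 0 UMIs, the ratio uses 3 UMIs in its place, and intervals that pass the axis are drawn to its edge. All were named by their intervals over all members. The higher genes keep intervals above 1 in both sets, and 7 of the lower genes have stricter intervals that hold 1.

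Genes linked to NK cells in obesity, several of them lipid genes, were at low levels. Lpl, lipoprotein lipase, was at 39.5 and 237 CPM in NK cells, 255 and 322 CPM in T cells and 167 and 2102 CPM in macrophages. Fabp4, the fatty acid binding protein of fat cells and macrophages, was at 39.5 and 178 CPM in NK cells, against 863 and 999 CPM in macrophages. Of 7 members of that list with 50 CPM, 4 were at least 2-fold higher and 1 lower, beside 11.8% and 13.9% of all genes. The median log2 ratio of the list was 1.74, and 0.62 over 8 members within the stricter limits. Of these 8, 4 were higher and 1 lower, beside 14.3% and 10.7% of all genes. The macrophage signal in the members also differed between the libraries, as given above. Among glycolytic genes Ldha, lactate dehydrogenase A, was at 403 and 690 CPM, a ratio of 1.71 (1.08 to 2.69), and 1.34 (0.775 to 2.26) without the deepest members, and the median of that list went from 0.64 to -0.06 without them.

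Of 9 MHC class I genes with 50 CPM, 0 reached 2-fold in either direction, beside 11.8% higher and 13.9% lower of all genes. Their median log2 ratio was 0.39, or 0.21 within the stricter limits, beside 0.12 for all genes with 100 CPM in both libraries. B2m, the light chain, was at 3578 and 4990 CPM, a ratio of 1.40 (1.19 to 1.63), with 1.06 in T cells. Cell cycle genes lay in few cells: Ube2c had 39 UMIs in NCD, 36 of them in the deepest member, and 6 in HFD, all in the deepest HFD member. The median log2 ratio of the 20 cell cycle genes with 50 CPM was -0.44, and 0.87 over 16 genes within the stricter limits, and -0.32 over 11 genes without the deepest member of each library. Ctla2a, a protease inhibitor of lymphocytes, was at 395 and 769 CPM, a ratio of 1.95 (1.25 to 3.02) and 1.47 (0.891 to 2.38) without the deepest members, and Itgal, the integrin LFA-1, at 63.2 and 256 CPM, a ratio of 4.06 (1.56 to 11.3), with 0.616 in T cells.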

How the data were processed

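Single-cell libraries of adipose stromal vascular fraction, 1 per diet, were analysed from the deposited UMI count tables, which hold 27998 genes and barcodes with at least 1556 UMIs (NCD) or 1401 UMIs (HFD). For the deposited counts, the submitters' processing notes name Cell Ranger, Seurat and mm10, with no version and no statement of what each did. The library totals were 33825653 UMIs over 7365 barcodes (NCD) and 18623508 over 6840 (HFD). The 56 symbols that stand for several genes were kept apart by identifier.

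Counts were summed over the cells of a class in a library and given as CPM of that sum. Sums have exact Poisson, shares Clopper-Pearson and ratios conditional binomial 95% intervals. A ratio with a count of 0 on one side was computed with 3 counts there. Such a ratio is not a limit, and its interval can reach closer to 1. With 1 library per diet no test was made. ILC2 held at least 3 UMIs over Il1rl1, Gata3, Il5 and Il13, with at most 1 Cd3 UMI and within the C1q and stromal limits. Macrophages held at least 0.5% C1q and stromal cells at least 1.5% stromal UMIs. Scrublet, at an expected rate of 5%, called 183 NCD doublets. Its own threshold called 0 in HFD, so the top 5% of scores, 403 with ties, were called. Called doublets were kept except in an alternative, and 1 member in each library was called.

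Named genes had at least 100 CPM, a UMI in at least 10% of NK cells and a level at or above that of the library, and were ranked by the distance of the interval from 1, leaving out the definition's own genes and mitochondrial, ribosomal, globin, sex-linked, predicted and receptor variable genes. Other genes were named from the 17 gene lists. Definition, members and lists were chosen with earlier results of these data known. The functions were tested on simulated data. Python 3.11.15, numpy 2.4.6, scipy 1.17.1, pandas 2.3.3, scanpy 1.11.5 and matplotlib 3.10.9 were used. Alternatives covered the limits of the definition, doublets, depth, free RNA, scaling and the minimum level.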

Additional observations from a re-analysis of the deposited data

How the results depend on the processing

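The NK share kept its direction under 11 of 12 alternatives, with a log2 ratio of -0.98 to -0.51, and turned to 0.34 when 1000 genes per cell were required and mitochondrial UMIs were limited to 10%, a filter that removes more cells from the shallower HFD library. Genes at least 2-fold higher numbered 214, and 379 with no Cd3 UMI allowed, 324 within the stricter limits, 327 with the mean of CPM per cell, 391 at 50 CPM and 62 at 200 CPM. Genes at least 2-fold lower numbered 195, and 459 at 50 CPM and 64 at 200 CPM. Of 214 alternative values of the 24 named genes, 190 were classed as the same, 23 as moved and 1 as reversed. The class of the same was wide. It held the log2 ratio of Tubb6 that went from -4.2 to -1.77 with no Cd3 UMI allowed. It also held that of Atad1, which went from 3.91 to 6.27 with the library profile subtracted. The 23 lay in 13 of the genes. The reversed value was that of Arl6ip1, at a log2 ratio of 0.22 within the stricter limits, which leave out the cell that held most of its UMIs. The log2 ratio of all genes with 100 CPM in both libraries had a median of 0.12. No paired analysis was possible because each diet has 1 library. A level of 100 CPM stands for 12.7 UMIs in NCD and 5.07 in HFD, so that small differences of low genes were not detectable.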
